A study of Homo sapiens with 6 samples.

Results

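Collagens are the fibrous proteins of the extracellular matrix, and the 44 protein-coding genes that encode their chains, from COL1A1 to COL28A1, are described here among the 58174 genes measured. They were chosen by symbol, which had to be COL, a number, A and a number, and not by any measured value. The cells were AGS, an established epithelial line from a human gastric adenocarcinoma. RNA sequencing covered 3 libraries titled si-NC, the control siRNA, and 3 titled si-FTO, in which an siRNA targeted FTO, the enzyme that removes methyl groups from m6A in RNA. The genotype labels of the same libraries read wild type and FTO-/-, which goes against the siRNA design, and the groups are called by their titles. Expression was given as TPM, a transcript's share of all transcripts corrected for its length, as 1 mean per group made by the authors. No value of a single library was used, so the spread between libraries and the depth are unknown. The differences have no replicate check here, as group means allow no test and the p-values deposited with them were not used.

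Each collagen chain carries long runs in which glycine recurs after each pair of other residues, and 3 such chains wind into a rope-like helix. Fibrillar collagens build the banded fibres of connective tissue, type IV forms the sheet of basement membranes, and the other classes decorate fibrils, form filaments or anchor cells and membranes. Epithelial cells mainly make basement membrane collagens, while fibroblasts are the classic source of the fibrillar ones.

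The mean level of FTO itself was 33.1 TPM in si-NC against 7.27 TPM in si-FTO, with a log2 ratio of -2.05. All ratios are si-FTO over si-NC, computed on mean TPM with a pseudocount of 1, which understates the difference of genes with low levels. A gene was compared if its mean reached 0.5 TPM in at least 1 group, and called higher or lower if the log2 ratio was at least 1 in size, that is 2-fold. The median log2 ratio over all genes compared was -0.20, so a ratio near 0 stood slightly above the typical gene.

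The labelled cell type was set against marker genes, and the groups differed widely in them. Of 13 epithelial markers 9 were compared, 7 were higher and 1 was lower in si-FTO. The summed level of the 13 was 69.5 TPM in si-NC against 5358 TPM in si-FTO. Beside the counts of all marker lists stand 11.4% higher and 17% lower among all genes compared. A marker that reached 0.5 TPM in 1 group only had unequal levels by the filter itself. The keratin KRT18 was the most abundant in si-NC, at 52.1 and 1851 TPM, and its partner KRT8 in si-FTO, at 10.8 and 3139 TPM. The keratin KRT7 was listed at 0 in si-NC and had 253 TPM in si-FTO, and the epithelial transcription factor ELF3 had 0.115 and 93.3 TPM. The tight junction genes CLDN3, CLDN4 and CLDN7 were higher in si-FTO, at 0.165 and 2.95 TPM, 0.226 and 2.70 TPM, and 1.17 and 14.8 TPM. Other markers that define epithelium were low, namely EPCAM at 1.22 and 0.113 TPM and CDH1 at 3.67 and 0.685 TPM. KRT19 and KRT20 were listed at 0 in si-NC, with 0.130 and 0.115 TPM in si-FTO, and ESRP1 was listed at 0 in si-FTO. Of the 13 epithelial markers, 2 were thus above 10 TPM in si-NC, namely KRT18 and KRT8, and 5 in si-FTO, so si-NC held little of the markers expected of an epithelial line. Whether both groups hold the same cells, differing in the siRNA alone, was not tested, and each ratio of si-FTO over si-NC carries that doubt.

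Of 14 fibroblast markers 12 were compared, 4 were higher, 3 lower and 5 neither, with a sum of 499 TPM in si-NC against 1697 TPM in si-FTO. Most of the sum was VIM in si-NC, and VIM and S100A4 in si-FTO. VIM, the mesenchymal intermediate filament, had 440 and 752 TPM, and the calcium-binding protein S100A4 had 3.13 and 872 TPM. The mesenchymal transcription factors TWIST1 and TWIST2 went opposite ways, with 17.6 and 4.24 TPM for TWIST1 and 8.57 and 29.8 TPM for TWIST2. The defining markers PDGFRA and PRRX1 had only 1.03 and 2.04 TPM in si-NC and were listed at 0 in si-FTO. FAP was listed at 0 in si-NC and had 1.23 TPM in si-FTO, while PDGFRB had 0.370 and 5.34 TPM. LUM had 2.95 and 2.52 TPM, and DCN had 0.158 and 0.866 TPM. THY1 and POSTN did not exceed 0.115 TPM in either group, and ACTA2 and FBLN5 were within 2-fold. The endothelial cadherin CDH5 was at 0.00827 and 40.9 TPM, but 5 of the 7 endothelial markers found were below 1 TPM in both groups, and their sums were 2.36 and 43.3 TPM. The leukocyte marker PTPRC was listed at 0 in both groups, and 7 of 8 leukocyte markers were below 1 TPM in both, with sums of 2.996 and 7.14 TPM. The part of these marker differences in the collagen levels was not tested. In such bulk RNA, fewer cells of a type and less RNA per cell cannot be told apart.

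Of the 44 collagens, 33 were compared, of which 14 were higher, 12 were lower and 7 were neither. Other scalings of the same 33 gave 15 higher and 11 lower (median-ratio), 15 and 12 (rescaled TPM), and 15 and 8 (quantile normalization). Among the genes compared, 11.4% were higher and 17% were lower, and among the protein-coding ones the shares were 12% and 19.1%. A collagen that passed the minimum only through the group where it was high had unequal levels by the filter itself, so the counts are a description. This applied to 18 collagens, 11 at or above 0.5 TPM in si-NC only and 7 in si-FTO only, of which COL5A3, COL14A1 and COL19A1 were still neither. Of the 15 collagens with at least 0.5 TPM in both groups, 8 were higher and 3 were lower, beside 10.3% and 12.6% of the protein-coding genes with that level in both groups. The remaining 11 collagens did not exceed 0.183 TPM in either group, and 2 of them, COL6A5 and COL22A1, were listed at 0 in both.

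Summed over the 44 genes, collagen transcripts amounted to 333 TPM in si-NC against 642 TPM in si-FTO, with a log2 ratio of sums of 0.94. That ratio was 1.16 after median-ratio scaling and thereby past 2-fold. The classes did not move together. The summed level was higher in si-FTO for the FACIT, anchoring fibril, short-chain, fibrillar and type IV classes, lower for the type VI, transmembrane and remaining chains, and within 2-fold for the multiplexins. Type VI collagen made up 38.9% of collagen TPM in si-NC and 0.675% in si-FTO. Over the same groups, the share of type IV was 22.5% and 33.5%, that of fibrillar collagens 17.0% and 26.8%, and that of FACIT 4.70% and 23.9%.

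**Figure D1:**
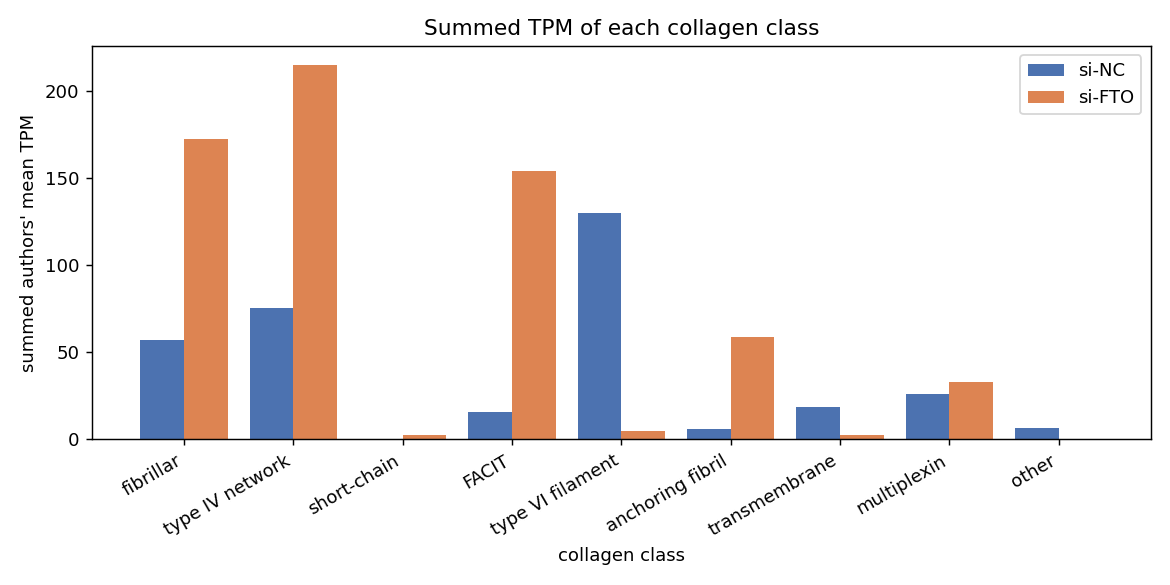
Summed mean TPM (vertical axis, linear from 0) of the 9 collagen classes, with bars for si-NC and si-FTO. Each bar is a sum of the authors' means and has no error bar. The type VI bar stands at 130 TPM in si-NC against 4.33 TPM in si-FTO, while the type IV bars stand at 75.0 and 215 TPM.

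The most abundant collagens also differed between the groups. In si-NC the leading 5 were COL6A1, COL4A2, COL6A2, COL18A1 and COL4A5, which together held 61.7% of collagen TPM. In si-FTO they were COL12A1, COL4A5, COL4A2, COL5A1 and COL7A1, with 58.1%. Only COL4A2 and COL4A5 were among the leading 5 of both.

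**Figure D2:**
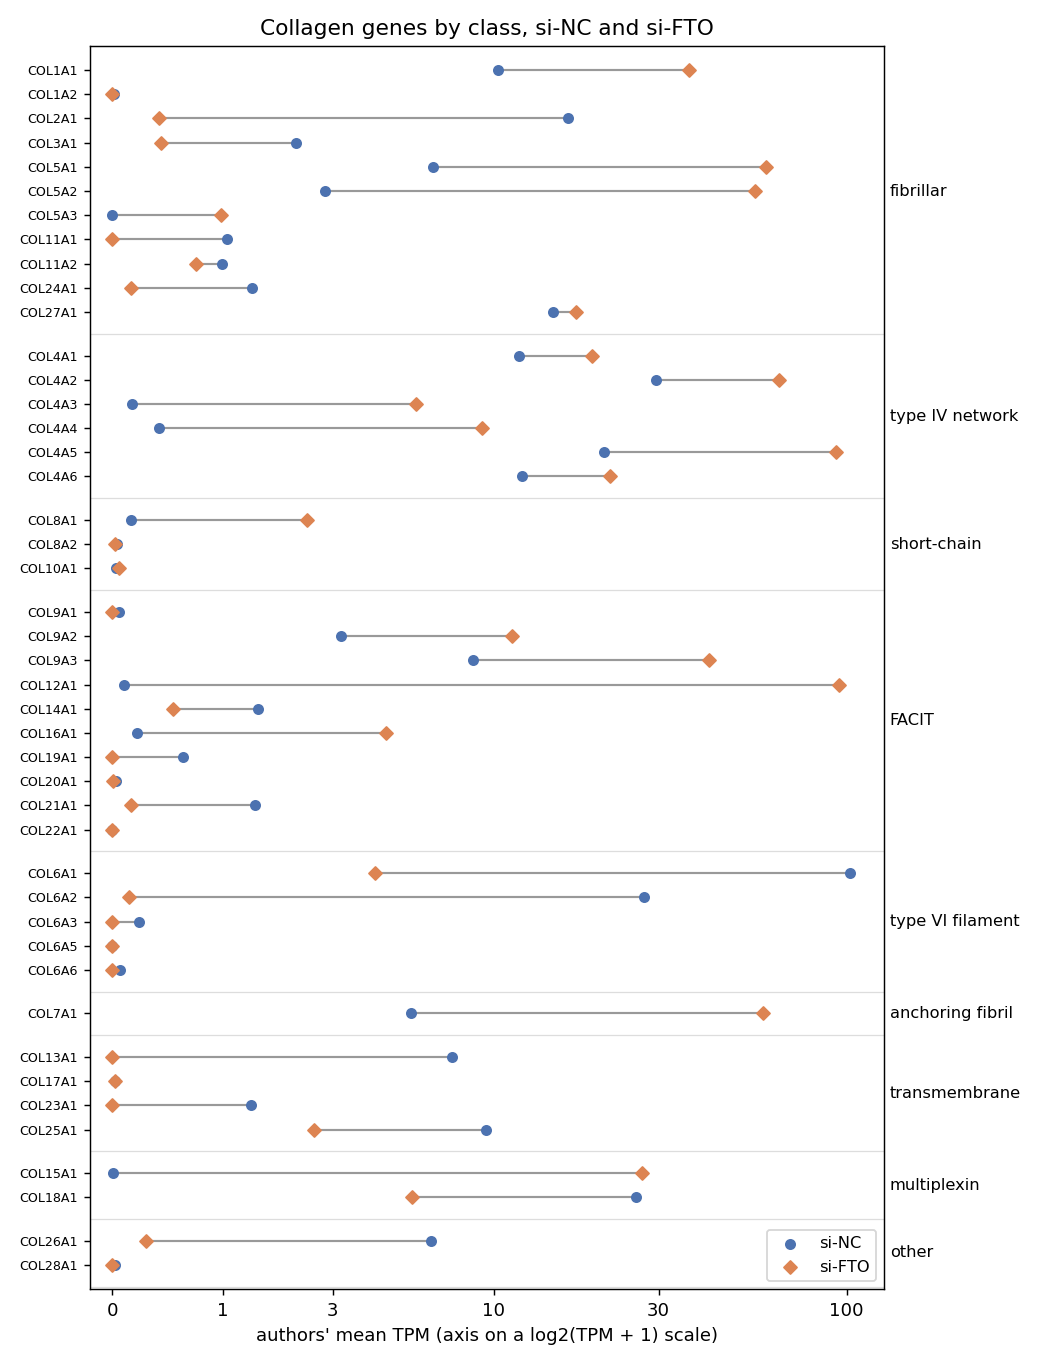
Mean TPM of each of the 44 collagens in si-NC (circles) and si-FTO (diamonds), on a log2(TPM + 1) axis and ordered by class, with a line joining the 2 values of a gene. The widest spans are those of COL12A1, COL15A1, COL6A2 and COL6A1, and 11 genes lie near 0 in both groups.

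To show what the rule did not use, the longest annotated coding sequence of each collagen was read from the GRCh37 annotation, which gave 43 of the 44. The longest run in which a glycine codon (GGN) recurred after each pair of other codons had a median of 61 repeats, between 28 and 343, compared with 2 over 19157 coding genes. A part of such a run is printed for COL12A1 and COL4A5, the most abundant collagens of si-FTO, with the glycine codons in capitals. The stretches are bases 8407 to 8466 of the COL12A1 coding sequence in a run of 32 repeats, and bases 3745 to 3804 of COL4A5 in a run of 42.

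COL12A1 coding: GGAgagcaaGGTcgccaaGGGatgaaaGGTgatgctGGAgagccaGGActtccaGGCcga
COL4A5 coding: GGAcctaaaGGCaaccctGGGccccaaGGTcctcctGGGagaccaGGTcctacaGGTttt

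GGAC is the core in which m6A is most often found, so it was counted on the sense strand of the same coding sequences; m6A itself was not measured. Collagens held a median of 11.6 GGAC per kb, between 4.53 and 16.0, whereas all coding genes had a median of 4.63. Of the 43 collagens, 42 lay above that median, and COL21A1 lay below it. The medians were 11.8 per kb for the collagens higher in si-FTO and 12.4 per kb for the lower ones, so both directions had a similar frequency. Collagen coding sequences were also richer in G and C, with a median of 59.5% compared with 52.9%. GGA is a glycine codon, and the count was not corrected for base composition or codon use.

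**Figure D3:**
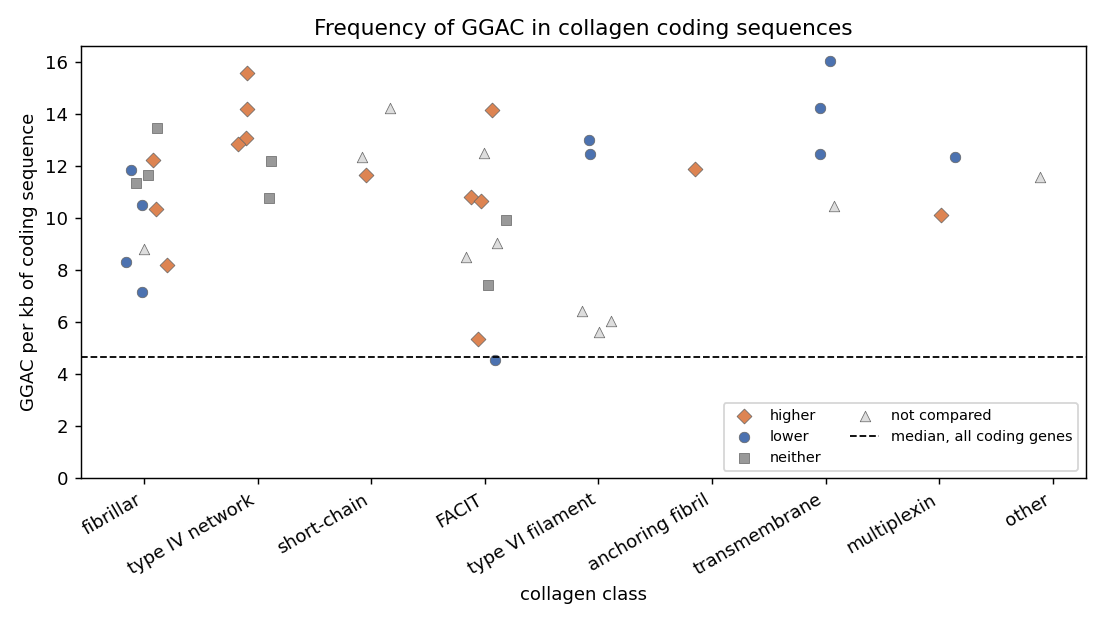
GGAC per kb of coding sequence (vertical axis from 0) for 43 collagens by class, with the symbol giving the call between the groups and the dashed line the median of 4.63 over all coding genes. Horizontal offsets within a class only separate the points. Genes higher and lower in si-FTO lie over the same range.

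Fibrillar collagens, the chains of the banded fibres, numbered 11, of which 3 were higher, 4 lower and 3 neither, and 1 was not compared. Among the protein-coding genes compared, 12% were higher and 19.1% were lower. All 4 lower genes reached 0.5 TPM in si-NC only and so had unequal levels by the filter itself. The 3 higher ones had at least 0.5 TPM in both groups. Their summed TPM was 3.03-fold higher in si-FTO, at 56.8 and 172 TPM, and the 3 genes called higher held most of it in si-FTO. COL5A1, a chain of the type V collagen that helps set fibril diameter, had 6.53 TPM in si-NC against 59.8 TPM in si-FTO, with a log2 ratio of 3.01. Its partner chain COL5A2 had 2.80 and 55.9 TPM, a log2 ratio of 3.91. The ratio of COL5A1 to COL5A2 was thus 2.33 in si-NC and 1.07 in si-FTO. The further type V chain COL5A3 was listed at 0 in si-NC and had 0.978 TPM in si-FTO. It was just short of a call, and was called higher under all 5 alternative settings.

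COL1A1, the major chain of type I collagen, had 10.3 and 36.4 TPM, a log2 ratio of 1.73. COL1A2, the chain with which it normally assembles, was at 0.00982 TPM in si-NC but listed at 0 in si-FTO. The type I chains thus stood at very unequal levels in both groups.

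The cartilage collagen gene COL2A1 went the other way, at 16.6 and 0.340 TPM with a log2 ratio of -3.71. COL3A1, found with type I in pliable tissues, had 2.18 and 0.361 TPM, a log2 ratio of -1.22. COL24A1, a minor fibrillar chain, had 1.41 and 0.125 TPM, a log2 ratio of -1.10. COL3A1 and COL24A1 had low levels and were within 2-fold after quantile normalization, at -0.97 and -0.91.

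The type XI chains, which lie in the core of cartilage fibrils, were low as well. COL11A1 had 1.05 TPM in si-NC but was listed at 0 in si-FTO. It was called lower at a log2 ratio of -1.04. It was within 2-fold after median-ratio scaling, at -0.99, and after quantile normalization, at -0.92. COL11A2 had 0.999 and 0.696 TPM, a log2 ratio of -0.24 that turned to 0.02 after quantile normalization. COL27A1, another cartilage fibrillar chain, was nearly level at 15.0 and 17.4 TPM with a log2 ratio of 0.21.

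Type IV collagen, the network of basement membranes, was the class with the largest sum in si-FTO, at 75.0 TPM in si-NC against 215 TPM in si-FTO, or 2.87-fold higher. All 6 chains were compared, 4 were higher, and COL4A1 and COL4A6 were higher by less than 2-fold. Among the protein-coding genes compared, 12% were higher. Of the 4, COL4A3 and COL4A4 reached 0.5 TPM in si-FTO only and so had unequal levels by the filter itself. The genes lie as 3 pairs that are read in opposite directions from a common start region, so the pairs are described together. In GRCh37, COL4A1 (chr13:110801310-110959504, minus strand) and COL4A2 (chr13:110958159-111165556, plus strand) overlap by 1346 bases at their starts. COL4A4 and COL4A3 lie 170 bases apart on chromosome 2, and COL4A6 and COL4A5 lie 340 bases apart on chromosome X.

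The DNA before the starts is printed for the 3 pairs from the RefSeq promoter table, build GRCh38.p14, on the strand of the second gene named, because members of a pair share it. For COL4A1 and COL4A2 it is the whole interval of 126 bases between the RefSeq starts, chr13:110307158-110307283. For COL4A4 and COL4A3 it is the 150 bases before the COL4A3 start out of 418 between the starts, chr2:227164474-227164623. For COL4A6 and COL4A5 it is the 150 bases before the COL4A5 start out of 379, chrX:108439688-108439837. Capitals mark matches on either strand to TATAAA, the letters of a TATA box, to CCAAT, which NF-Y binds, to GGGCGG, which SP1 binds, or to TGANTCA, which AP-1 binds. The marked matches do not overlap.

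COL4A1-COL4A2: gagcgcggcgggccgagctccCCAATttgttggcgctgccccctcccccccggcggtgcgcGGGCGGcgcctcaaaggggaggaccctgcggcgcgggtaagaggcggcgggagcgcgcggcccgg
COL4A4-COL4A3: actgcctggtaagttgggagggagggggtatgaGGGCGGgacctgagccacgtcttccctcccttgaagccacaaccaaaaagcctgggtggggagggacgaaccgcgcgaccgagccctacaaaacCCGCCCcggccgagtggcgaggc
COL4A6-COL4A5: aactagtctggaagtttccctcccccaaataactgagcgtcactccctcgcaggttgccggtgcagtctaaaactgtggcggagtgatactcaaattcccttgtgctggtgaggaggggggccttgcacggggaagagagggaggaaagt

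The first interval held 1 CCAAT and 1 GGGCGG, the second stretch held GGGCGG 2 times, and the last had no match in the 150 bases printed. The full windows of 300 bases also reach beyond what is printed. Counted as a whole, the COL4A5 window held CCAAT 2 times and the COL4A6 window at this start CCAAT 3 times. The whole COL4A1 window held GGGCGG 2 times, with the 1 printed above included. The GC content was 80.2%, 66.0% and 55.3%. A match is a description of the letters only.

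COL4A1 and COL4A2, the chains of the network found in nearly all basement membranes, had 11.9 and 29.6 TPM in si-NC and 19.4 and 65.1 TPM in si-FTO. The log2 ratios were 0.66 for COL4A1 and 1.11 for COL4A2. COL4A2 exceeded COL4A1 in both groups, by 2.49-fold in si-NC and 3.36-fold in si-FTO, whereas the assembled molecule holds more of the COL4A1 chain.

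COL4A3 and COL4A4, chains of the specialised network of kidney, lung and inner ear, were near 0 in si-NC at 0.130 and 0.341 TPM. In si-FTO they had 5.73 and 9.19 TPM, log2 ratios of 2.57 and 2.93. Both members of this pair were thus higher together, with COL4A4 at 1.60 times the level of COL4A3 in si-FTO.

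COL4A5, which joins COL4A3 and COL4A4 in that network and COL4A6 in smooth muscle and some epithelia, had 20.9 and 93.7 TPM, a log2 ratio of 2.11. COL4A6 had 12.2 and 21.8 TPM, a log2 ratio of 0.79. The pair therefore did not keep its proportion, since COL4A5 was 1.72-fold above COL4A6 in si-NC and 4.29-fold above it in si-FTO. COL4A5 also stood at 16.4 times the level of COL4A3 in si-FTO.

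Genes around the type IV pairs were examined in the same way, as the 20 nearest protein-coding genes compared, collagens left out. Beside all neighbour counts in this text stand 12% higher and 19.1% lower among the protein-coding genes compared. Around COL4A1 and COL4A2, 14 of 20 neighbours were higher in si-FTO and 0 were lower, with a median log2 ratio of 1.40, above the ratios of both collagens. Around COL4A5 and COL4A6 the median was -0.71, with 1 neighbour higher and 9 lower, opposite to the collagens. Around COL4A3 the median was -0.53, with 4 higher and 7 lower, and around COL4A4 it was -0.47, with 5 higher and 6 lower. Whether the level of the surrounding genes bears on COL4A1 and COL4A2 was not tested.

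**Figure D4:**
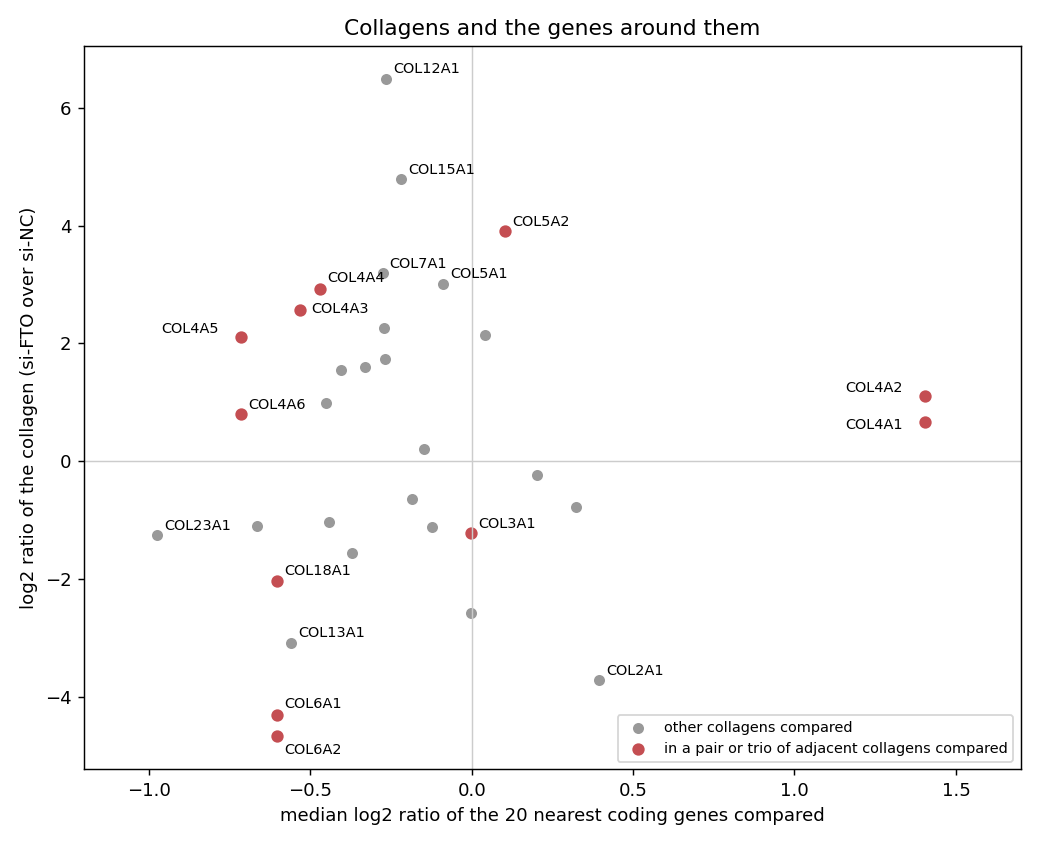
Log2 ratio of each of the 33 collagens compared (vertical axis) against the median log2 ratio of its 20 nearest protein-coding neighbours compared (horizontal axis), both si-FTO over si-NC. Red points are the type IV chains, COL3A1, COL5A2, COL6A1, COL6A2 and COL18A1, which lie near another collagen compared. COL18A1 is the farthest, 468 kb from COL6A1 with 1 coding gene between. COL4A1 and COL4A2 lie to the right at 1.40, while COL12A1 stands at 6.49 with neighbours at -0.26.

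Type VI collagen, the beaded filament that links cells to the surrounding matrix, was the class with the largest sum in si-NC, and was 29.9-fold lower in si-FTO, at 130 and 4.33 TPM. COL6A1 had 102 TPM in si-NC against 4.22 TPM in si-FTO, with a log2 ratio of -4.30. COL6A2 had 27.2 and 0.108 TPM, a log2 ratio of -4.67. COL6A1 was 3.76-fold above COL6A2 in si-NC. COL6A3, which completes the usual molecule, and its relatives COL6A5 and COL6A6 did not exceed 0.183 TPM in either group.

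COL6A1 and COL6A2 lie on chromosome 21, at chr21:47401684-47424964 and chr21:47518026-47552762 in GRCh37, both on the plus strand and 93.1 kb apart. COL18A1 lies 468 kb before COL6A1 with 1 coding gene between, and was lower as well. The 20 nearest neighbours of each had a median log2 ratio of -0.60, with 1 higher and 3 lower. The window before the COL6A2 start is printed because COL6A2 had the lowest log2 ratio among the collagens, at chr21:46097962-46098111 in GRCh38.p14, plus strand, with the same motifs in capitals.

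COL6A2 upstream: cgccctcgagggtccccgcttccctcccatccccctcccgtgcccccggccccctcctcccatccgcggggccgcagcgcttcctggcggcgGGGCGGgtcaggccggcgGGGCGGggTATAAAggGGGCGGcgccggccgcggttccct

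These 150 bases held TATAAA 1 time and GGGCGG 3 times, and the full window of 300 bases held GGGCGG 4 times.

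Among FACIT collagens, which sit on the surface of fibrils, 7 of 10 were compared, 4 were higher, 1 was lower and 2 were neither. The shares among the protein-coding genes compared were 12% higher and 19.1% lower. Of the higher ones, COL12A1 and COL16A1 reached 0.5 TPM in si-FTO only, and the lower one, COL21A1, in si-NC only. These had unequal levels by the filter itself. The class sum was 15.7 TPM in si-NC against 154 TPM in si-FTO, 9.81-fold higher. COL12A1, a large FACIT of dense connective tissue (ENSG00000111799, chr6:75794042-75915983, minus strand, GRCh37), had 0.0740 TPM in si-NC against 95.6 TPM in si-FTO, with a log2 ratio of 6.49. It was thus close to 0 in si-NC and the most abundant collagen in si-FTO, with 14.9% of collagen TPM. Its 20 nearest neighbours had a median log2 ratio of -0.26, with 3 higher and 8 lower.

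COL9A2 and COL9A3, chains of the cartilage type IX collagen, had 3.20 and 8.66 TPM in si-NC and 11.3 and 41.6 TPM in si-FTO. Their log2 ratios were 1.55 and 2.14. Their partner COL9A1 was at 0.0421 TPM in si-NC but listed at 0 in si-FTO. COL16A1, a FACIT of skin and cartilage, had 0.167 and 4.60 TPM, a log2 ratio of 2.26.

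The other FACIT genes had low levels in both groups. COL14A1, which can bind decorin on fibrils, had 1.49 and 0.464 TPM, a log2 ratio of -0.77. COL21A1 had 1.45 and 0.125 TPM, a log2 ratio of -1.12 that was -0.92 after quantile normalization. COL19A1, a minor basement membrane zone collagen, had 0.559 TPM in si-NC but was listed at 0 in si-FTO. COL20A1 and COL22A1 did not exceed 0.0256 TPM.

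COL7A1, the sole chain of the anchoring fibrils that tie basement membranes to the stroma, had 5.53 and 58.8 TPM, a log2 ratio of 3.20. Of the short-chain network collagens only COL8A1, a vessel and cornea collagen, was compared, with 0.126 and 2.39 TPM and a log2 ratio of 1.59. COL8A2 and COL10A1 were near 0 in both groups.

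The multiplexins COL15A1 and COL18A1, basement membrane zone proteoglycans that are the sources of restin and endostatin, went opposite ways. COL15A1 had 0.00794 TPM in si-NC against 26.9 TPM in si-FTO, with a log2 ratio of 4.79. COL18A1 had 25.9 and 5.58 TPM, a log2 ratio of -2.03. Their sum therefore moved little, at 25.9 and 32.5 TPM, while the leading gene was a different one in each group.

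The windows before the starts of COL12A1 and COL15A1, the collagens with the largest log2 ratios, are printed in the same way. They are chr6:75206054-75206203, minus strand, and chr9:98943757-98943906, plus strand, in GRCh38.p14.

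COL12A1 upstream: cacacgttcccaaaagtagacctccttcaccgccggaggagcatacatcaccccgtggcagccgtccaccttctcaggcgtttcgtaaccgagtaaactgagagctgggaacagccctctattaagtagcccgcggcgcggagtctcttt
COL15A1 upstream: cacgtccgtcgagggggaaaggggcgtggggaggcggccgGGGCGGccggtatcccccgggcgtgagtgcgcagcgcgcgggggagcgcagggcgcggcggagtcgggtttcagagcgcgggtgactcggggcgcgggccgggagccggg

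The 150 bases printed for COL12A1 held 0 matches to the 4 motifs, while its full window of 300 bases held GGGCGG 2 times. COL15A1 had GGGCGG 1 time in both. The GC content of the printed stretches was 57.3% and 80.7%. The RefSeq table gave 44 windows of 300 bases, 250 before and 50 after a start, for 32 collagens. GGGCGG was in 24 of them, or 54.5%, compared with 45.0% of all 35116 windows. TATAAA was in 18.2% compared with 11.5%, CCAAT in 31.8% compared with 34.6%, and TGANTCA in 2.27% compared with 7.71%. Some genes have several windows that overlap, so the motifs were also counted by gene, in any of its windows. Counted so, 21 of the 32 collagens held GGGCGG and 7 held TATAAA. Of 10 collagens higher in si-FTO, 8 held GGGCGG and 1 held TATAAA, and of 9 lower ones, 6 held GGGCGG and 3 held TATAAA. The shares over all windows given above are not counted by gene. Windows of COL14A1, COL1A1, COL1A2, COL20A1, COL22A1, COL2A1, COL3A1, COL5A2, COL6A1, COL6A5, COL8A1 and COL9A3 were not used here.

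Transmembrane collagens, which span the plasma membrane and shed their ectodomains, were lower in si-FTO where compared, 3 of 3. Among all genes compared 17% were lower, and 2 of these 3 collagens reached 0.5 TPM in si-NC only. COL13A1, found at cell adhesions and neuromuscular junctions, had 7.46 TPM in si-NC but was listed at 0 in si-FTO. COL23A1 had 1.39 TPM in si-NC but was listed at 0 in si-FTO. COL25A1, a mostly neuronal chain, had 9.46 and 2.55 TPM, a log2 ratio of -1.56. COL17A1, the hemidesmosome collagen of epithelia, was near 0 at 0.0176 and 0.0194 TPM. Around COL23A1, 9 of 20 neighbours were lower and 0 were higher, with a median log2 ratio of -0.98. The part of those neighbours in the COL23A1 value was not tested. In the remaining class, COL26A1 had 6.41 and 0.239 TPM, a log2 ratio of -2.58, and COL28A1 was near 0.

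Adjacent collagens outside type IV and type VI did not all share a direction. COL3A1 and COL5A2 lie 19.2 kb apart on chromosome 2 in GRCh37, on opposite strands with 0 coding genes between, and COL3A1 was lower while COL5A2 was higher. COL19A1 and COL9A1 lie 3571 bases apart, and both were listed at 0 in si-FTO.

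Some collagen genes overlap a gene on the other strand, where reads could be shared if strand was not used in counting. The library kit was stranded, but the strand setting of the counting was not given in the sources used here, so these values are uncertain. COL18A1 overlaps SLC19A1, which had 41.4 and 23.5 TPM, and COL9A3 overlaps TCFL5, which had 25.2 and 25.7 TPM. COL19A1 overlaps LMBRD1, at 17.5 and 12.7 TPM. COL4A1 and COL4A2 overlap each other, COL4A5 overlaps a Y RNA gene at 1.95 and 6.07 TPM, COL15A1 overlaps a lncRNA at 0.990 TPM in si-FTO, and COL4A3 overlaps MFF-DT at 0.587 and 0.593 TPM.

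Genes that make, process and bind collagen were described by lists, each set beside the median of -0.20 for all genes compared. Beside the counts of these lists stand 11.4% higher and 17% lower among all genes compared. As with the collagens, a gene that passed the minimum only through its high group had unequal levels by the filter itself. The list counts are therefore a description. Of 14 hydroxylases and glycosyltransferases that modify the chains in the endoplasmic reticulum, 3 were higher, 2 lower and 9 neither, with a median log2 ratio of 0.37. P4HB, a subunit of prolyl 4-hydroxylase and the most abundant, was within 2-fold at 398 and 490 TPM. The prolyl 3-hydroxylases P3H2 and P3H3 went opposite ways, with 2.64 and 63.1 TPM for P3H2 and 28.5 TPM in si-NC and a listing at 0 in si-FTO for P3H3. The lysyl hydroxylase PLOD2 had 35.5 and 75.6 TPM, a log2 ratio of 1.07.

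Of 12 chaperones and export factors of procollagen, 2 were higher, 1 lower and 9 neither, with a median of 0.07. SERPINH1, the collagen-specific chaperone, had 48.9 and 107 TPM, a log2 ratio of 1.11. The export factor MIA2 had 9.84 and 22.4 TPM, and the channel gene TMEM38B had 24.6 and 11.6 TPM. The prolyl isomerase PPIB was the most abundant at 510 and 999.9 TPM.

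Of 10 genes of propeptide processing 7 were compared, 4 were higher, 2 lower and 1 neither, with a median of 1.01. PCOLCE, the enhancer of procollagen C-proteinases, had 23.8 and 734 TPM, a log2 ratio of 4.89. The C-proteinases BMP1 and TLL1 had 14.2 and 0.911 TPM in si-NC and 61.0 and 20.4 TPM in si-FTO. The N-proteinase ADAMTS2 had 16.1 TPM in si-NC but was listed at 0 in si-FTO.

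Of 13 genes of cross-linking and fibril assembly, 5 were higher, 3 lower and 5 neither, with a median of 0.64. PXDN, the peroxidase that cross-links type IV collagen, was the most abundant in si-FTO, at 39.7 and 354 TPM. The lysyl oxidase homologue LOXL2 had 9.65 and 37.6 TPM. The collagen-binding glycoprotein SPARC had 114 and 20.7 TPM, and FN1, the fibronectin on which fibrils assemble, had 27.7 and 8.74 TPM.

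Of 8 other components of basement membranes, 7 were compared, 5 were higher and 2 lower, with a median of 1.91. The nidogens, which join laminin to type IV collagen, were lower, at 69.9 and 0.0211 TPM for NID1 and 33.0 and 3.67 TPM for NID2. The heparan sulphate proteoglycan gene HSPG2 was higher at 6.56 and 65.7 TPM, as were SMOC1 at 32.4 and 218 TPM and TINAGL1 at 0.0471 and 12.3 TPM. FBLN1 was the most abundant in both groups, at 82.9 and 314 TPM. Type IV collagen and its partners therefore did not all go one way.

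Of 10 collagen receptors 6 were compared, 4 were higher and 0 lower, with a median of 1.28. ITGB1, the shared beta chain of the collagen-binding integrins and the most abundant, had 83.3 and 298 TPM. The discoidin receptor DDR2 had 16.7 and 44.7 TPM, and ADGRG1, a receptor for type III collagen, had 0.186 and 29.9 TPM. Of 11 genes of collagen degradation and its inhibitors 8 were compared, 4 were higher and 2 lower, with a median of 0.23. The higher ones included the inhibitors TIMP1, at 138 and 507 TPM, and TIMP2, at 28.1 and 102 TPM, and the uptake receptor MRC2, at 24.8 and 94.4 TPM. The other higher gene was the protease MMP9, at 0.0432 and 1.10 TPM. Both lower genes were proteases, MMP2 at 7.21 and 0.0305 TPM and MMP14 at 1.57 and 0.138 TPM.

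A list of 27 genes of proteins that carry a collagen repeat outside the COL genes, which is not all of them, had 13 compared, 4 higher, 4 lower and 5 neither, with a median of -0.17. C1QTNF6, a C1q-like secreted protein, had 4.69 and 87.2 TPM. C1QTNF1 had 3.40 and 17.2 TPM, and the scavenger receptor SCARA3 had 8.79 and 36.0 TPM. The scavenger collectin COLEC12 had 12.1 TPM in si-NC but was listed at 0 in si-FTO, and the elastic-fibre glycoprotein EMILIN2 had 13.3 and 0.274 TPM.

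**Figure D5:**
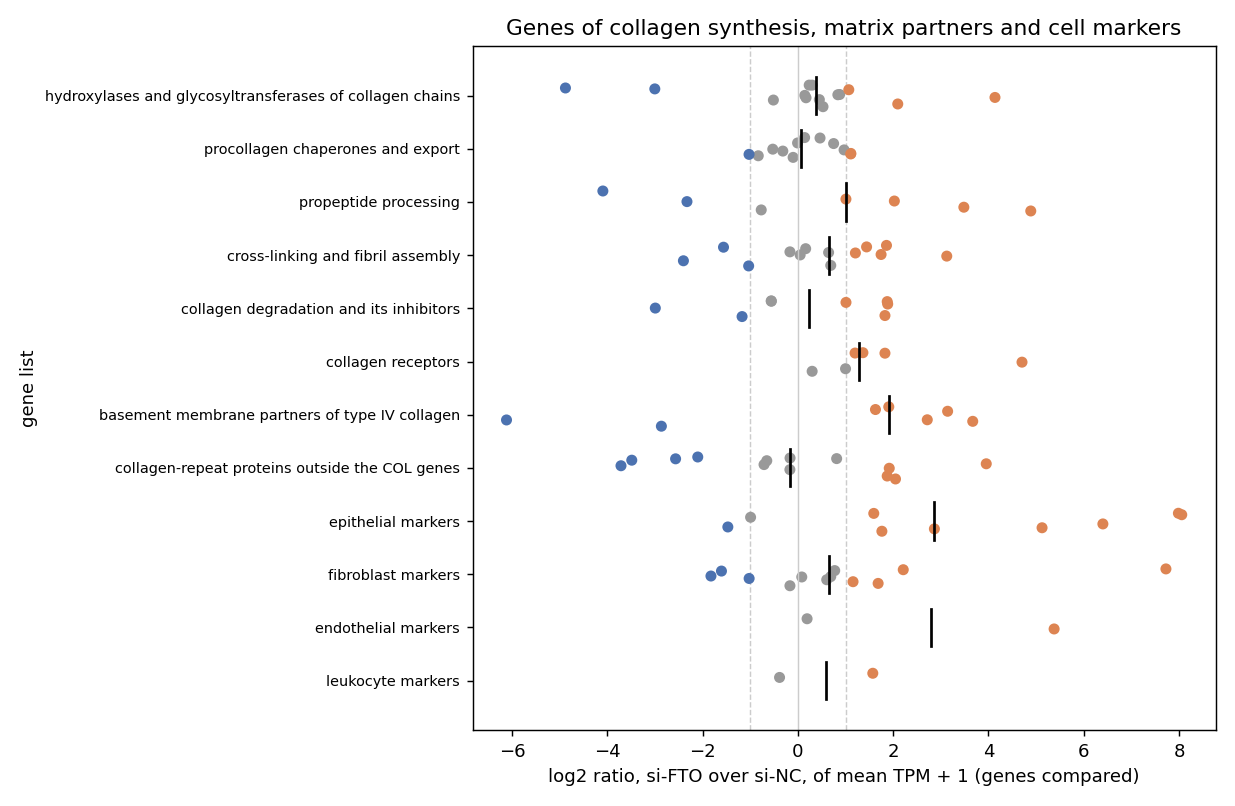
Log2 ratio (horizontal axis, si-FTO over si-NC) of each gene compared in 12 lists, coloured orange for higher, blue for lower and grey for neither, with dashed lines at the 2-fold limits and a black bar at each list's median. Vertical offsets within a list only separate the points. The medians of the chaperone list at 0.07 and of the basement membrane list at 1.91 can be compared with -0.20 for all genes compared.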

How the data were processed

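The samples were 6 RNA libraries of AGS cells, 3 titled si-NC and 3 titled si-FTO, grouped by title. The deposited values were TPM of 58174 genes, averaged by the authors within each group. Per the paper's methods, reads were mapped to hg19 with Bowtie and quantified with RSEM, whereas the submitters' processing notes name HISAT2 and hg19, with no versions. The annotation was not given in the sources used here. The table also holds the authors' log2 ratio, p-value and q-value per gene, and a second table holds the genes they called different. None of these columns was used. TPM keeps no depth, so depth and precision are unknown.

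A value of 0.0001 was read as 0, which applied to 26830 genes in si-NC and 29534 in si-FTO. No fold is given against such a value, which may be a failed estimate. A limma fit was planned for the case of 1 column per library and could not be made on means. In its place the log2 ratio of mean TPM + 1 was used, over 20493 genes with at least 0.5 TPM in at least 1 group, called at 1 or more in size. Symbols were matched for 55726 identifiers. The members were taken by symbol alone, but this rule, the classes and the lists were chosen with earlier results of these data known. The chain pairs whose ratios are given were chosen after their values were seen. Every collagen with at least 0.5 TPM in at least 1 group is named. Of each other list the named genes are those past 2-fold with at least 10 TPM in at least 1 group, up to 3 in each direction, and the most abundant. Other markers, the proteases MMP2, MMP9 and MMP14, and overlapping genes named besides were chosen after their values were seen.

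Gene positions and coding sequences came from GENCODE lifted to GRCh37, and promoters from RefSeq on GRCh38.p14. A further sequence is not reported here. Motifs were counted on both strands with overlapping matches allowed. Alternatives were median-ratio scaling, quantile normalization, TPM rescaled without mitochondrially encoded genes and the 10 most abundant genes of either group, other pseudocounts, minima and thresholds. Python 3.11.15, numpy 2.4.6, pandas 2.3.3 and matplotlib 3.10.9 were used, and the calculation was tested on simulated data.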

Additional observations from a re-analysis of the deposited data

How the results depend on the processing

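No paired analysis was possible because the values are 1 mean per group, although the titles number the libraries 1 to 3. For the same reason leaving out each library in turn could not be run. Of 165 alternative values of single collagens, 151 kept their side of the 2-fold limit, 5 fell within it, 9 passed it, and 0 calls changed direction. The 5 were COL11A1 after median-ratio scaling and COL11A1, COL3A1, COL24A1 and COL21A1 after quantile normalization. COL5A3 was past 2-fold under all 5 alternatives, and COL14A1 and COL19A1 were past it with a pseudocount of 0.1 or with none. The sums of the 9 classes kept their direction and side of the limit under all 4 alternatives tried on them. The sum over all collagens passed the limit, with a log2 ratio of 1.16 after median-ratio scaling, which removed a shift of -0.21, and 1.01 after quantile normalization. The number of collagens higher was between 10 and 15 under the 8 alternatives. The number lower was 12, and became 7 with a minimum of 5 TPM and 6 with a log2 ratio of at least 2, as fewer genes qualify by construction. It was 8 after quantile normalization and 11 after median-ratio scaling, and 14 with a pseudocount of 0.1 or with none. Levels of a few TPM or less have unknown precision.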

Other observations

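Transcripts named after collagens that encode no chain were near 0. Of 10 pseudogenes and antisense or divergent transcripts, none exceeded 0.412 TPM in either group. That highest value was of the pseudogene COL6A4P1 in si-NC, which had 0.175 TPM in si-FTO. COL5A1-AS1 had 0.370 TPM in si-NC but was listed at 0 in si-FTO, and COL4A2-AS1 was listed at 0 in si-NC and had 0.283 TPM in si-FTO. COL10A1, near 0 in both groups, overlaps NT5DC1, which had 39.1 and 9.26 TPM, and 11 of the 20 nearest neighbours of COL10A1 were lower.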
